A study of Homo sapiens with 6 samples.

Results

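Tissue factor, its inhibitors and the plasminogen activators were examined in cells labelled HepG2, with a control hairpin or a hairpin against ARHGEF2. The set held 9 genes, chosen by gene symbol from the 27605 genes listed: F3, TFPI, TFPI2, PLAU, PLAUR, PLAT, SERPINE2, ANXA2 and S100A10. F3 was the reason for the choice, because it was lower in the knockdown, so its difference between the groups is given as a description with no test. The other 8 genes were picked for their roles in the start of coagulation and in fibrinolysis, with earlier results of the same libraries known. HepG2 is a line grown from a human liver tumour. The shNC group (n = 3 libraries) is labelled wild type and carried a control hairpin. The shARHGEF2 group (n = 3 libraries) was infected with a lentivirus whose hairpin lowers ARHGEF2, the gene of a microtubule-bound guanine nucleotide exchange factor. All cells were kept in DMEM with 10% fetal bovine serum and antibiotics. The labels do not say how many hairpins were used or whether the libraries came from separate cultures, so p-values measure the spread between these libraries, which may be technical.

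Blood coagulation starts when tissue factor, a membrane receptor encoded by F3, meets factor VII. The complex of tissue factor with activated factor VII activates factor X, and TFPI blocks both enzymes. Fibrin is later dissolved by plasmin, which the activators tPA (PLAT) and uPA (PLAU) cut from plasminogen. On the cell surface uPA is held by its receptor uPAR (PLAUR), while the annexin A2 and S100A10 complex docks plasminogen and tPA. Serpins such as protease nexin-1 (SERPINE2) inhibit the activators. Tumour cells use the same enzymes to break down matrix around them.

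The levels are FPKM, fragment counts scaled to transcript length and library size, so genes can be compared per length. ARHGEF2 itself read 13, 14.4 and 13.9 FPKM in shNC replicates 1 to 3 and 4.25, 4.0 and 4.82 FPKM in shARHGEF2 replicates 1 to 3. Every knockdown library lay below every control library (log2 fold change -1.47, standard error 0.11, adjusted p = 0.00244 in limma). An exact permutation test, two-sided, gave p = 0.10, the smallest that 3 libraries against 3 allow. The spacing of low values gave an estimated 40100000 to 46800000 reads per library. At the best spacing only 44.8% to 46.4% of these values lay within 0.1 reads of a whole number, where 20% would at an arbitrary spacing, so the depth is approximate and no count test was run. Markers of hepatocytes were nearly absent: of 18 genes, 7 were not analysed here, and CPS1 was the only other one with a mean of at least 0.5 FPKM. The summed FPKM of the 11 analysed was 20 to 36.1 in shNC and 17.0 to 21.4 in shARHGEF2 libraries. RBP4 reached 0.907 FPKM, and the other 9, AFP, APOA1 and HNF4A among them, stayed at or below 0.248 FPKM in every library. Apart from CPS1, the hepatocyte genes that HepG2 cells are known for were thus at or near 0 among those analysed. The name HepG2 is taken from the labels, and the identity of the line was not tested here. Summed FPKM of squamous epithelial markers, nearly all of it KRT17 and SFN, was 684 to 1008 in shNC and 860 to 977 in shARHGEF2 libraries. KRT14 did not exceed 1.32 FPKM in any library. KRT5, KRT6A and TP63 were near 0, at no more than 0.137, 0.0149 and 0.0227 FPKM. KRT17 overlapped between the groups, whereas SFN was higher without overlap, at 228 ± 21.5 and 287 ± 16.2 FPKM (SD, n = 3 each, adjusted p = 0.184 in limma). The sums for mesenchymal markers were 39.8 to 52.7 and 38.7 to 45.6, and of these COL1A1 was higher without overlap, at 6.37 ± 0.390 and 8.66 ± 0.816 FPKM (SD, n = 3 each, adjusted p = 0.188 in limma), while the other 5 overlapped. Leukocyte markers summed to 60.6 to 88.0 and 75.3 to 85.7, nearly all of it CD68, while PTPRC did not exceed 0.0239 FPKM. Endothelial markers summed to 0.628 to 0.666 and 0.819 to 0.906, and PECAM1 was the only one of these above 0.0385 FPKM. SFN, COL1A1 and PECAM1 were thus higher in the knockdown without overlap, like PLAT, PLAUR and SERPINE2 and 11.3% of all genes tested. PECAM1 did so at 0.583 ± 0.0385 and 0.810 ± 0.0471 FPKM (SD, n = 3 each). APOA1 lay apart in the lower direction, at 0.0461 to 0.248 FPKM in shNC and 0 FPKM in shARHGEF2 libraries, below the level needed for a test. The part of these markers in the results was not tested. Library composition also differed along GC content. The Spearman correlation, across 12231 genes, between a gene's GC content and its deviation from its own mean was -0.465 in shNC replicate 2 and 0.569 in shARHGEF2 replicate 1, with the other 4 libraries between -0.291 and 0.201.

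Across all 6 libraries S100A10 was the most abundant of the set, with a mean of 444 FPKM (range 402 to 498). This placed it at the 99.7th percentile of all genes listed. PLAUR (mean 55.2 FPKM), SERPINE2 (54.5) and ANXA2 (53.7) formed a second tier near the 97th percentile. Below them came PLAT with 15.4 FPKM, F3 with 12 and TFPI with 2.22. PLAU, the urokinase gene, averaged 0.415 FPKM, although its receptor was among the most abundant mRNAs. TFPI2, a Kunitz-type inhibitor of plasmin that is deposited in the matrix, was close to 0 with a mean of 0.0192 FPKM. S100A10 exceeded PLAUR in 6 of 6 libraries by a mean of 3.03 (SD 0.25) in log2 FPKM, ANXA2 exceeded PLAT in 6 of 6 by 1.86 (SD 0.50), and TFPI exceeded PLAU in 6 of 6 by 2.48 (SD 0.65). F3 also exceeded TFPI in 6 of 6, by 2.34 (SD 0.63). Each of these differences had p = 0.0312 in a two-sided exact sign-flip permutation test, the smallest that 6 libraries allow. Over 7 neighbouring pairs the adjusted p of each in this test was 0.0547. The order came from the same libraries, so the direction was set beforehand and these p-values are a description only. PLAUR and SERPINE2 differed by 0.01 (SD 0.20, exact p = 0.875), and SERPINE2 and ANXA2 by 0.01 (SD 0.20, exact p = 0.938), so the order within this tier was not resolved. SERPINE2 lay below ANXA2 in 3 of 3 shNC libraries and above it in 3 of 3 shARHGEF2 libraries. PLAT and F3 also changed places. F3 was the higher in 2 of 3 shNC libraries and PLAT was the higher in 3 of 3 shARHGEF2 libraries.

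**Figure D1:**
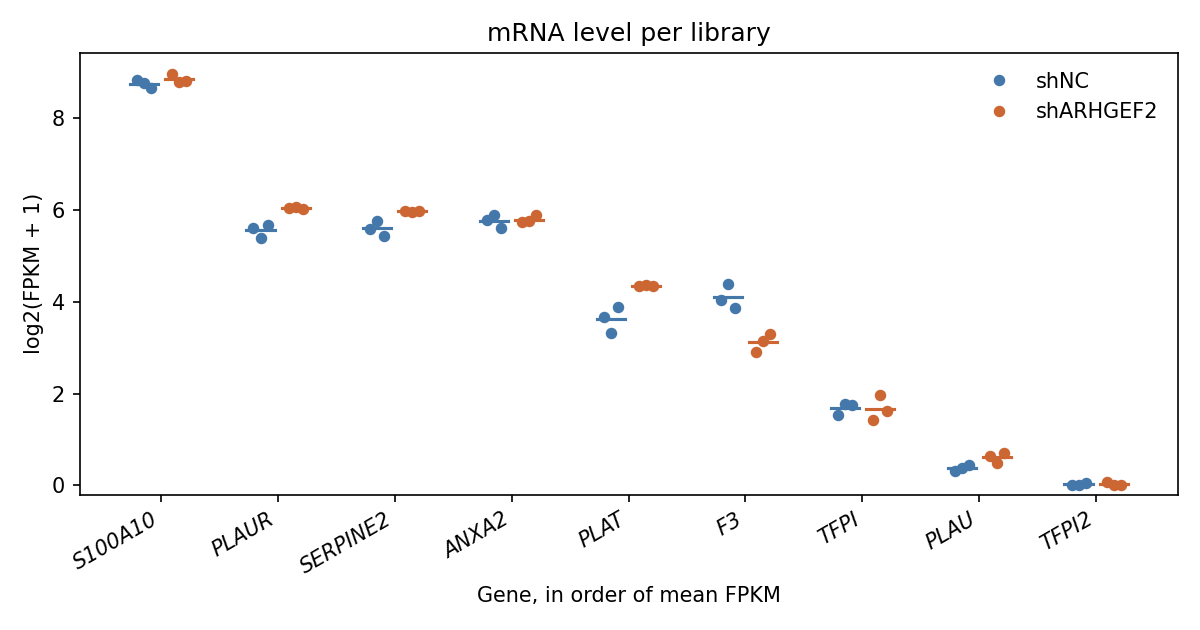
Level of each of the 9 genes in each library, as log2(FPKM + 1), in order of mean FPKM. Points are libraries and bars are group means of the log values; S100A10 stands far above the rest, the groups separate in F3, PLAT, PLAUR, SERPINE2 and PLAU, and TFPI2 sits near 0.

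F3 (ENSG00000117525, minus strand of chromosome 1, from 94529225 to 94541800 on GRCh38 in GENCODE 29) was lower in the knockdown. It had 15.4, 20 and 13.6 FPKM in shNC replicates 1 to 3 and 6.44, 7.85 and 8.84 FPKM in shARHGEF2 replicates 1 to 3. The lowest control library was thus well above the highest knockdown library. The group means were 16.3 ± 3.29 and 7.71 ± 1.21 FPKM (SD, n = 3 each), a ratio of 0.473, and the fitted log2 fold change was -0.98 (standard error 0.16) on the log2(FPKM + 1) scale. F3 was highest in shNC replicate 2 and lowest in shARHGEF2 replicate 1, the libraries farthest apart along GC content, and its transcripts have a median GC content of 43.5%. Without both libraries the log2 fold change was -0.73, and with a loess trend on GC content removed it was -0.96. In bulk RNA, fewer cells that express a gene and less of its RNA per cell cannot be told apart.

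TFPI, which stops the tissue factor complex, stood at 1.91, 2.44 and 2.36 FPKM in shNC and at 1.69, 2.89 and 2.06 FPKM in shARHGEF2 libraries. The lowest and the highest of the 6 values both came from knockdown libraries, and the groups overlapped fully. Its log2 fold change was -0.02 (95% interval -0.38 to 0.34, adjusted p = 0.977 in limma), and the sign turned in 6 of 15 alternatives. The ratio of F3 to TFPI, in FPKM within a library, was 8.06, 8.19 and 5.75 in shNC and 3.81, 2.72 and 4.29 in shARHGEF2 libraries. It carries the lower F3 values and is no independent result. TFPI2 was listed between 0 and 0.0597 FPKM, which on its 1 transcript of 2445 nt stands for an estimated 0 to 5.85 reads, and was not tested.

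The mRNA of the activator tPA was higher in the knockdown. PLAT, on chromosome 8, had 11.7, 8.99 and 13.7 FPKM in shNC libraries and 19.1, 19.5 and 19.4 FPKM in shARHGEF2 libraries. All 3 knockdown libraries were above all 3 controls, with means of 11.5 ± 2.37 and 19.3 ± 0.193 FPKM (SD, n = 3 each). The fitted log2 fold change came to 0.72 with a standard error of 0.14 (adjusted p = 0.105 in limma), which did not pass the threshold of 0.05 over 12291 genes tested. It passed without shNC replicate 3 (log2 fold change 0.85, adjusted p = 0.0434 in limma). The mRNA of the other activator, uPA, was scarce. PLAU had 0.243, 0.293 and 0.360 FPKM in shNC and 0.566, 0.409 and 0.619 FPKM in shARHGEF2 libraries, about 25.6 to 33.5 and 41.0 to 67.3 reads as estimated from the median transcript length. The groups did not overlap, but the mean was below the 0.5 FPKM needed for a test.

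The mRNA of the uPA receptor was abundant and read higher in the knockdown libraries. PLAUR (ENSG00000011422, minus strand of chromosome 19, from 43646095 to 43670547) read 47.4, 41.0 and 49.8 FPKM in shNC and 64.3, 65.2 and 63.4 FPKM in shARHGEF2 libraries. The groups were separated by a wide gap, and the knockdown libraries lay closer together than the controls. The fit put PLAUR at a log2 fold change of 0.48 with a standard error of 0.10 (adjusted p = 0.110 in limma), short of the threshold. The mRNA of the receptor stood at 138 to 195 times that of uPA in shNC libraries and at 102 to 160 times in shARHGEF2 libraries, ranges that overlapped.

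SERPINE2 encodes protease nexin-1, a serpin that traps thrombin, uPA and tPA (ENSG00000135919, minus strand of chromosome 2, from 223975112 to 224039319). It had 47.2, 52.9 and 42.3 FPKM in shNC libraries and 61.7, 60.8 and 62.2 FPKM in shARHGEF2 libraries. Again no control library reached the lowest knockdown library. SERPINE2 did not pass the test either, at a log2 fold change of 0.37 with a standard error of 0.10 (adjusted p = 0.158 in limma). The ratio of SERPINE2 to PLAT was 4.03, 5.88 and 3.09 in shNC and 3.23, 3.12 and 3.21 in shARHGEF2 libraries, so the groups overlapped in the balance of this inhibitor to tPA.

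Neither gene of the docking complex separated the groups. S100A10 (chromosome 1, from 151982915 to 151994390) had 455, 430 and 402 FPKM in shNC and 498, 437 and 444 FPKM in shARHGEF2 libraries, with overlapping groups (log2 fold change 0.10, 95% interval -0.11 to 0.30, adjusted p = 0.691 in limma). ANXA2 (chromosome 15, from 60347134 to 60402883) had 53.8, 58.1 and 47.8 FPKM in shNC and 51.8, 52.7 and 58.0 FPKM in shARHGEF2 libraries (log2 fold change 0.03, 95% interval -0.20 to 0.26, adjusted p = 0.942 in limma). Its sign turned in 3 of 15 alternatives. The processed pseudogene ANXA2P2, which is nearly identical to the ANXA2 mRNA, carried 25.6 to 31.5 FPKM in shNC and 26.4 to 30.1 FPKM in shARHGEF2 libraries, so reads may have been split between the pair. ANXA2P1 did not exceed 0.192 FPKM, and ANXA2P3 was not analysed here. S100A10 stood at 7.40 to 8.46 times ANXA2 in shNC and 7.65 to 9.60 times in shARHGEF2 libraries, and at 4.80 to 5.73 and 5.10 to 6.36 times with ANXA2P2 added to ANXA2.

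**Figure D2:**
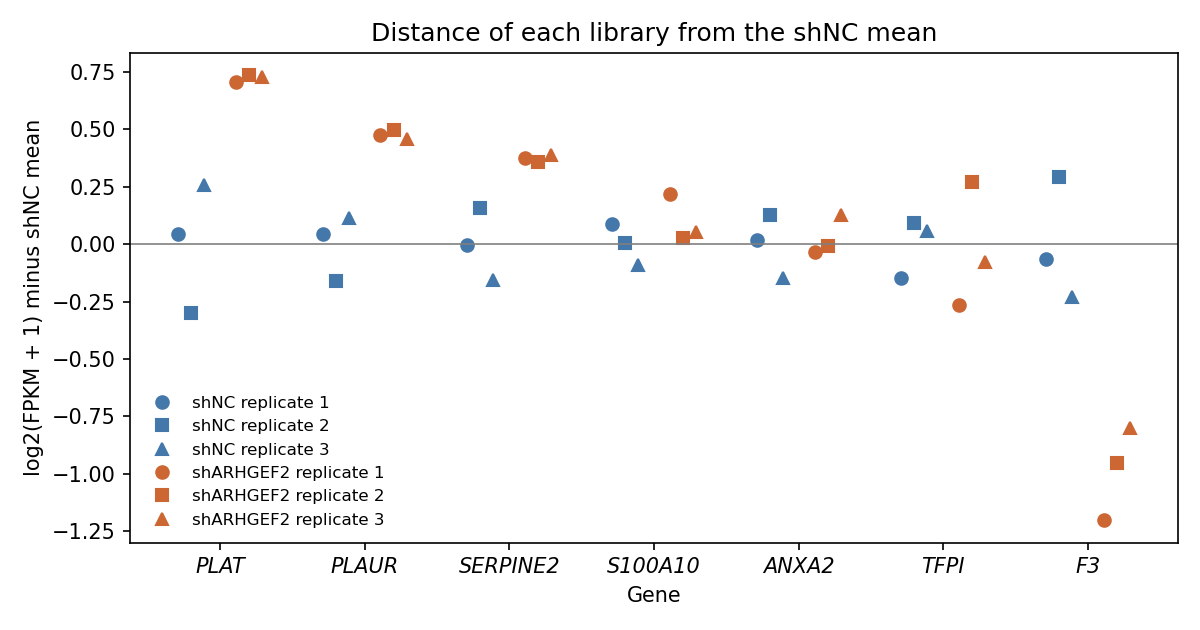
Distance of each library from the shNC mean of the same gene, in log2(FPKM + 1), for the 7 genes that entered the fit. Colours are groups and symbols are replicate numbers; the shARHGEF2 points of PLAT, PLAUR and SERPINE2 lie close together above all controls, those of F3 lie below, and S100A10, ANXA2 and TFPI overlap.

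Of the 8 genes other than F3, 6 were tested and 0 had an adjusted p under 0.05 in limma, where 0.277% of all genes tested did (0.195% higher and 0.0814% lower). At an unadjusted p under 0.05, 3 of the 6 were higher (PLAT, PLAUR and SERPINE2) and 0 were lower, against 8.10% and 5.55% of all genes tested (13.7% in either direction). These 3 were also the tested ones whose groups did not overlap, all in the higher direction, against 11.3% of all genes tested in that direction, 9.17% in the lower and 20.5% in either. Among the 34 genes with an adjusted p under 0.05, the changes smallest in size were those of CA9 and DDIT4, both at a log2 fold change of -0.60. PLAT, at 0.72, was larger in size than these, and PLAUR (0.48) and SERPINE2 (0.37) were smaller. The standard errors of PLAT, PLAUR and SERPINE2 were 0.14, 0.10 and 0.10, and those of CA9 and DDIT4 were 0.07 and 0.09. Why PLAT, PLAUR and SERPINE2 did not pass was not tested. PLAT, PLAUR and SERPINE2 also shared a narrow spread in the knockdown. Their coefficients of variation were 0.998%, 1.36% and 1.14% in shARHGEF2 libraries and 20.7%, 9.81% and 11.1% in shNC libraries. LRP1, an endocytic receptor described below, had 1.42% and 21.0%, so the narrow spread was not particular to these 3. The median over all genes tested was 12.4% in shARHGEF2 and 14.8% in shNC libraries, and 2.63% of all genes tested were under 2% in shARHGEF2 libraries. This spread was noticed after the values were seen. Without shNC replicate 2 and shARHGEF2 replicate 1, the libraries farthest along GC content, the log2 fold change was 0.58 for PLAT, 0.40 for PLAUR and 0.45 for SERPINE2 (adjusted p = 0.262, 0.280 and 0.276 in limma).

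The Pearson correlation of log2(FPKM + 1) with F3 was -0.964 for PLAT, -0.977 for PLAUR, -0.709 for SERPINE2, -0.559 for S100A10, 0.196 for ANXA2 and 0.195 for TFPI (n = 6 libraries). These values describe likeness and support nothing further, since the 6 libraries hold the difference between the groups that chose F3, and a gene higher in the knockdown gives a negative correlation with it. Within the controls, PLAT and PLAUR ran in the reverse order to F3, but within the knockdown they did not: shARHGEF2 replicate 1 had the least F3 and also the least PLAT, and shARHGEF2 replicate 2, not replicate 1, had the most PLAUR. Among 10210 genes averaging 1 FPKM or more, the 5 most like F3 were NAT10, an RNA acetyltransferase (0.997), UBE2D4, a ubiquitin-conjugating enzyme (0.992), PRMT2, an arginine methyltransferase (0.990), CHD1L, a chromatin remodeller (0.987), and FAM162A (0.986). NAT10 had 12.5, 13.6 and 11.5 FPKM in shNC and 8.35, 8.91 and 9.48 FPKM in shARHGEF2 libraries. It followed the same order of libraries as F3.

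The promoter windows of RefSeq (GRCh38.p14, from 250 bases before to 50 after the start site) were available for 8 of the 9 genes, all but PLAT, and were searched for 4 motifs on both strands. The motif TGANTCA, bound by AP-1 factors, was present in 4 of the 10 windows of these genes and in 7.71% of all 35116 windows. The 4 were those of F3, PLAUR, ANXA2 and TFPI2, and SERPINE2 and PLAU had more than 1 window each. As the motifs were chosen after the sequences were seen, these shares are a description only. These 4 windows are shown because they hold the motif and belong to genes with unlike values: lower in the knockdown, higher, overlapping and near 0. Each is printed 5′ to 3′ on the gene's strand, with TGANTCA in capitals. All 4 lie on the minus strand, F3 at chr1:94541710-94542009, PLAUR at chr19:43670120-43670419, ANXA2 at chr15:60397937-60398236 and TFPI2 at chr7:93890704-93891003.
F3: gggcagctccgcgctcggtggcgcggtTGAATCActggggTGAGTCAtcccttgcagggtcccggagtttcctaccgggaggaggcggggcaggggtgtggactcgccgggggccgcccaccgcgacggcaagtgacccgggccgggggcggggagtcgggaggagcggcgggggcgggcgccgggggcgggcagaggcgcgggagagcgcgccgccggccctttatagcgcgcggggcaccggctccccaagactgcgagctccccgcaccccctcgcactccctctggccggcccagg
PLAUR: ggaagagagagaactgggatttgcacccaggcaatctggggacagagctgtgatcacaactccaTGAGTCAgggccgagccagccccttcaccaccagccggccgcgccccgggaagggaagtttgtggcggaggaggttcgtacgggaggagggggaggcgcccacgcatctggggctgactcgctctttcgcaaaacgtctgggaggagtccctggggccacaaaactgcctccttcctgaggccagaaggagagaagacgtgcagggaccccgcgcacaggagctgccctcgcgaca
ANXA2: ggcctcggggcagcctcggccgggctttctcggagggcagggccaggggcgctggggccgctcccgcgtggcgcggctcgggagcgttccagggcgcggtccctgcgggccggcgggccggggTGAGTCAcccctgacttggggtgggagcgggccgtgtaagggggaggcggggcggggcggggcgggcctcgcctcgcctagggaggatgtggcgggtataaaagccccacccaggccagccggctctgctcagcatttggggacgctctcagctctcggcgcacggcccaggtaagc
TFPI2: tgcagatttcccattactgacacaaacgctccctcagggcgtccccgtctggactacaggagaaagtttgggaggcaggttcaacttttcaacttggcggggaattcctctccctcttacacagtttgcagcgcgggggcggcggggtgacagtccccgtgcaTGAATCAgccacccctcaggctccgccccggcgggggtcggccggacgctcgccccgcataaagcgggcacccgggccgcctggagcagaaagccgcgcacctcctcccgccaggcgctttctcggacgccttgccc

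F3 was the only one of the 8 genes with more than 1 such motif, and its 2 copies begin at positions -223 and -210 from the start site. The copy of PLAUR begins at -186, that of ANXA2 at -127 and that of TFPI2 at -87. The GC box GGGCGG occurred in 7 of the 10 windows, from 6 genes, and in 45.0% of all windows, with 4 copies in F3 and 0 in PLAUR and TFPI. The motif CCAAT was found in 2 of the 10, from SERPINE2 and PLAU (34.6% of all windows), and TATAAA also in 2, from F3 and ANXA2 (11.5%). F3 and ANXA2 thus share 3 of the motifs, while their mRNA values differed in pattern between the groups. The F3 window has a GC content of 77.3% and that of TFPI 39.3%, where the median of all windows is 58.7%. A motif match is a description of the sequence and does not show binding.

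The other genes of coagulation, anticoagulation, fibrinolysis and the partners of uPAR were read from 4 lists of 71 genes in all. Of these, 14 were not analysed here, PLG and F7 among them, 20 had a mean below 0.5 FPKM and 37 were tested. Of the 37, 0 had an adjusted p under 0.05 in limma, 7 were higher and 1 was lower at an unadjusted p under 0.05, against 0.277%, 8.10% and 5.55% of all genes tested, and the median log2 fold change was 0.08 against -0.00 for all genes tested. The groups did not overlap for 9 of the 37 in the higher direction and 1 in the lower, against 11.3% and 9.17% of all genes tested. Of the plasma factors and fibrinogen chains analysed, F12 was the only one with a mean above 0.294 FPKM, at 7.07 FPKM. Of the coagulation list, 7 of 22 genes were tested, 0 were called and 1 was higher at an unadjusted p under 0.05. F10 did not exceed 0.0906 FPKM. The gene higher was P4HB, a disulfide isomerase, at 189, 230 and 178 FPKM in shNC and 237, 257 and 229 FPKM in shARHGEF2 libraries (adjusted p = 0.311 in limma), with overlapping groups.

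Of the anticoagulants, the thrombin receptors and PAR2, 6 of 14 were tested. All 6 had a fitted value above 0, as 49.6% of all genes tested did. At an unadjusted p under 0.05 in limma, 2 were higher, as 8.10% of all genes tested were. PROCR, the endothelial protein C receptor, had 56.4, 55.2 and 60.5 FPKM in shNC and 69.6, 80.3 and 80.3 FPKM in shARHGEF2 libraries (log2 fold change 0.41, standard error 0.09, adjusted p = 0.126 in limma). F2RL1, the receptor PAR2 that the tissue factor complex can cleave, had 3.01, 3.94 and 3.57 FPKM in shNC and 4.90, 4.92 and 5.42 FPKM in shARHGEF2 libraries (log2 fold change 0.44, standard error 0.12, adjusted p = 0.181 in limma). Both genes were separated between the groups, as 11.3% of all genes tested were in that direction, without passing the test.

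In the fibrinolysis list, 12 of 21 genes were tested, with 4 fitted above 0 and 8 below (all genes tested, 49.6% and 50.4%). The groups did not overlap for 4 genes in the higher direction and 1 in the lower (all genes tested, 11.3% and 9.17%). SERPINB2 (PAI-2) and SERPINF2 (antiplasmin) stood at 0.428 to 1.03 and 0.904 to 1.78 FPKM over the 6 libraries, with adjusted p of 0.716 and 0.874 in limma. SPINT1, a Kunitz inhibitor of matriptase and of the activator of hepatocyte growth factor, had 0.479, 0.828 and 1.21 FPKM in shNC and 1.80, 1.65 and 1.43 FPKM in shARHGEF2 libraries (log2 fold change 0.53, adjusted p = 0.200 in limma). With a pseudocount of 0.1 its log2 fold change was 0.95 (adjusted p = 0.228 in limma). ENO1, a glycolytic enzyme that also binds plasminogen on the cell surface, was the gene lower at an unadjusted p under 0.05, from 852 ± 80.0 to 698 ± 32.4 FPKM (SD, n = 3 each, adjusted p = 0.238 in limma), with a log2 fold change of -0.28 that was -0.13 after quantile normalization.

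Of the integrins and endocytic receptors that bind uPAR or clear its complexes, 12 of 14 were tested and 3 were higher at an unadjusted p under 0.05 (8.10% of all genes tested). LRP1, which takes up activators bound to serpins, had 9.40, 12.6 and 14.4 FPKM in shNC and 15.8, 16.0 and 15.6 FPKM in shARHGEF2 libraries (adjusted p = 0.307 in limma), with a log2 fold change of 0.38 that was 0.22 without shNC replicate 1. ITGB5 had means of 60.6 ± 3.89 and 73.9 ± 1.80 FPKM, and MRC2, a collagen receptor that associates with uPAR, 46.2 ± 6.34 and 55.4 ± 3.01 FPKM (SD, n = 3 each). Their adjusted p were 0.204 and 0.346 in limma.

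**Figure D3:**
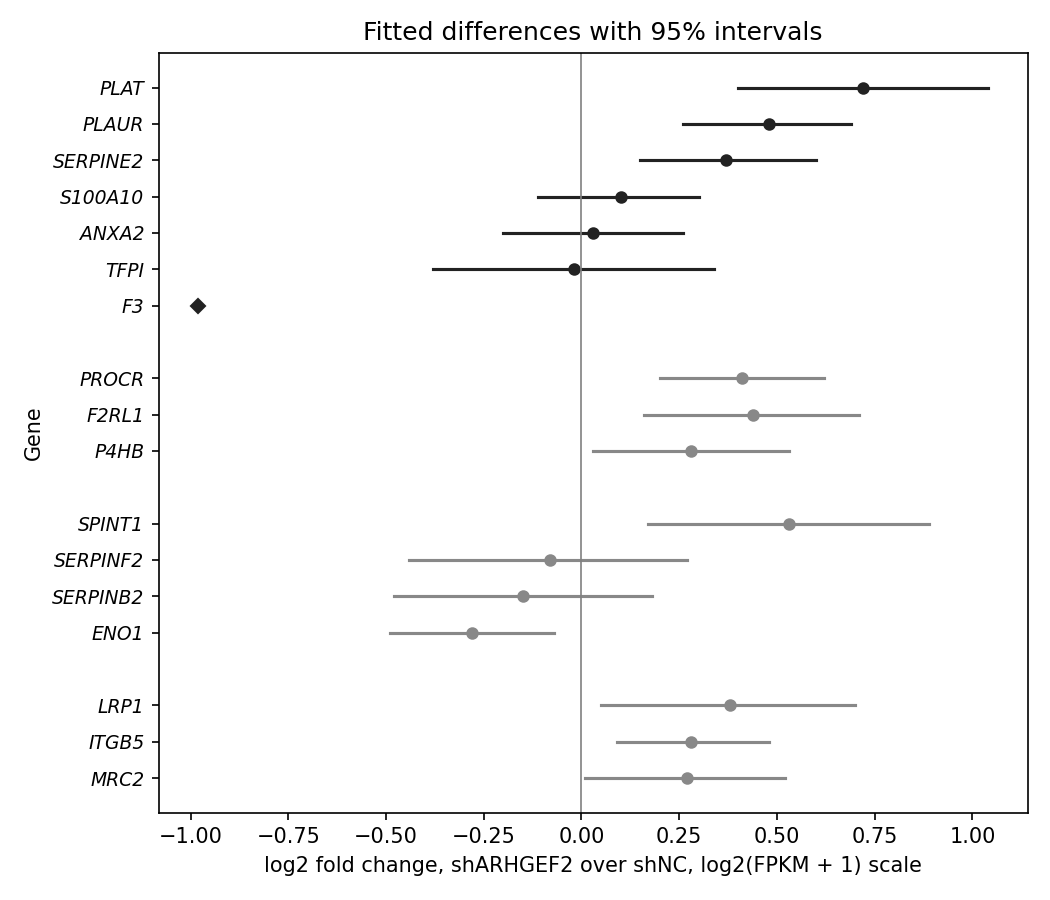
Fitted log2 fold change of shARHGEF2 over shNC on the log2(FPKM + 1) scale, with 95% intervals from limma, for the members (black) and the named genes of the companion lists (grey). F3, drawn as a diamond with no interval because it chose the set, is the lowest at -0.98, PLAT is the highest member at 0.72, and S100A10, ANXA2 and TFPI have intervals that include 0.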

How the data were processed

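Poly(A) RNA of 6 libraries was sequenced as stranded read pairs. The authors deposited a table with 1 FPKM value per gene and library, beside annotation and the columns of their own comparison (fold change, p and q values, calls), which were left aside. The submitters' processing notes name cutadapt 1.9, HISAT2 2.0.4, UMI-tools, StringTie 1.3.4d, DESeq2, edgeR and the build hg19, without roles. Gene models and positions are from GENCODE 29 (GRCh38), which held 94.7% of the listed transcripts, and the deposited table has no coordinates.

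The 12291 genes averaging 0.5 FPKM or more were fitted with limma 3.58.1 (R 4.3.3, statmod 1.5.0; trended, robust variances) on log2(FPKM + 1), without a block, and adjusted by the Benjamini-Hochberg method over all of them. The pseudocount understates changes of low genes. Same-numbered libraries were not treated as pairs. Their residual correlations were 0.184, 0.159 and -0.105, and those of libraries with unlike numbers were -0.221 to 0.068. These values do not settle whether the libraries were paired, so a replicate block was one of the alternatives. Single values and neighbouring levels used exact permutation tests. Depth was estimated from FPKM spacing, so no counting interval was computed.

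Named were the 9 members, ARHGEF2, the ANXA2 pseudogenes, PLG, SERPINB2, SERPINF2, F7, F10, F2RL1, companion genes with p under 0.05, and the 5 genes most like F3. Some genes of the companion lists are not reported here, and the counts leave them out. The members and lists were chosen with earlier results of these data known, and the motifs after the sequences were seen. Alternatives were a pseudocount of 0.1, other filters, quantile normalization, plain variances, a replicate block and each library left out. Removal of a GC trend (loess span 0.3), scaling to equal totals and leaving out both libraries farthest along GC content were added after the data were seen. Python 3.11.15, pandas 2.3.3, numpy 2.4.6 and matplotlib 3.10.9 were used.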

Additional observations from a re-analysis of the deposited data

How the results depend on the processing

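The number of genes called was 34. It was 1 with no filter beyond a value above 0, 54 with at least 1 FPKM in 3 or more libraries, 19 after quantile normalization, 7 without trended or robust variances and 8 without shNC replicate 2 and shARHGEF2 replicate 1 together. With the replicate block it was 0, with 1976 genes at an unadjusted p under 0.05 in limma; the block changed no call among the members or companions. With 1 library left out it ranged from 6 (without shARHGEF2 replicate 3) to 102 (without shNC replicate 3). More genes were lower than higher without shNC replicate 1 (5 higher, 8 lower), shARHGEF2 replicate 1 (4 and 8) or shARHGEF2 replicate 2 (6 and 9). The count of members called, with F3 left out, was 0 in every setting except without shNC replicate 3, where it was 1 (PLAT). That of the companion genes counted here was 0 in every setting (4 to 8 at an unadjusted p under 0.05 in limma). Over the 15 alternatives, F3 lay between -1.10 and -0.73, PLAT between 0.57 and 0.85 (adjusted p 0.0434 to 0.403), PLAUR between 0.40 and 0.53 (0.0681 to 0.399) and SERPINE2 between 0.30 and 0.45 (0.0969 to 0.457), in log2 with limma.

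Values near 0 changed sign. TFPI was -0.17 without shARHGEF2 replicate 2, but 0.02, 0.01, 0.10 and 0.0045 without shNC replicate 2, shNC replicate 3, shARHGEF2 replicate 1 and shARHGEF2 replicate 3, 0.0038 with equal totals and 0.14 without both libraries farthest along GC content. ANXA2 was -0.0026 after quantile normalization, -0.05 without shNC replicate 3 and -0.02 without shARHGEF2 replicate 3. SERPINF2 was 0.08 without shNC replicate 1 and -0.20 without shNC replicate 3. With 1 library left out, the level of PLAUR over SERPINE2 ranged from -0.03 to 0.09 and that of SERPINE2 over ANXA2 from -0.04 to 0.05 in log2 FPKM. The cause of these changes was not tested. All differences between the groups, large or small, rest on at most 3 libraries per group. Genes with a mean under 0.5 FPKM were not tested in the main fit, and the read numbers given rest on a depth that was only estimated.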

Other observations

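AHNAK, which encodes a large scaffold protein that binds the annexin A2 and S100A10 complex, had 0.746 FPKM in shARHGEF2 replicate 1 and between 5.78 and 9.25 FPKM in the other 5 libraries. It was singled out after its values were seen. The low value stands for an estimated 19.2 reads, on a median transcript length of 642.5 nt, against 169 to 266 reads in the others. The library shARHGEF2 replicate 1 also lay farthest along GC content (Spearman correlation 0.569). The part of GC content in the low value was not tested. Over all 6 libraries the fitted difference was -0.69 in log2 (95% interval -2.58 to 1.20, adjusted p = 0.759 in limma).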
